A study of Mus musculus with 2 samples.

Results

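The 32 genes described here encode proteins of DNA replication and of the S phase of the cell cycle, and were taken as the rows of the count matrix that carry 1 of 32 gene symbols. All 32 were found among the 28692 genes of the matrix. By role they fall into 9 genes of origin licensing and the replicative helicase (Cdc6, Cdt1, Mcm2 to Mcm7 and Gins2), 7 genes of the replication fork (Prim1, Pcna, Rpa2, Fen1, Lig1, Clspn and Dscc1), 5 genes of nucleotide supply (Tyms, Tk1, Rrm1, Rrm2 and Dut), 6 genes of chromatin and cohesion (Slbp, Chaf1b, Hells, Uhrf1, Dnmt1 and Esco2) and 5 genes of S-phase control (Rad51ap1, Dtl, Fbxo5, Ccne1 and Ccne2). The study sequenced single cells of neural stem cell cultures from the subventricular zone, a germinal region beside the lateral ventricles, of C57/Bl6J mice. By the labels, the growth factors EGF and FGF had been withdrawn 3 days earlier, and 1 library holds vehicle (DMSO) cells and 1 library cells given the oxysterol 20HC at 1 µM. The labels give the cells of both as postnatal and name the strain with no transgene or deletion, and they give no age or number of animals. Each cell barcode of the 1 pooled matrix ends in the number 1 or 2, no label ties either number to a library, and the control and 20HC cells therefore cannot be told apart.

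In a dividing cell, origins are licensed in G1 when Cdc6 and Cdt1 load the Mcm helicase, and the helicase is fired at the start of S phase. Forks then copy the DNA with primase, the sliding clamp Pcna, single-strand binding protein, flap endonuclease and ligase, while ribonucleotide reductase, thymidylate synthase, thymidine kinase and dUTPase supply the nucleotides. Most of these genes are textbook targets of E2F transcription factors, which the retinoblastoma family restrains in resting cells, and in the subventricular zone their transcripts mark the transit-amplifying cells and dividing neuroblasts that quiescent stem cells give rise to.

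The promoters of the members were searched for E2F-type sequences, since these are the regulatory sequences the group is known for. A window of 300 bases around the annotated start was held for 27 of the 32 members (RefSeq, GRCm38.p6), and none was used for Mcm4, Gins2, Dscc1, Esco2 and Ccne2. One of the 8-letter motifs TTTCCCGC, TTTGGCGC, TTTCGCGC and TTTGCCGC, on either strand, was present for 12 of 27 members (44.4%), beside 4.79% of 9843 genes measured in these cells and 2.61% of all 27025 genes of the table. Matches can overlap, because TTTGGCGC on one strand and TTTCGCGC on the other can share 4 letters. With only the 150 bases before the start the share was 5 of 27 (18.5%), beside 1.44% of all genes. Among 68 matched genes of an 85-gene list of other replication genes, 22 (32.4%) held a motif, and among 18 matched genes of a 20-gene mitotic list 1 did (5.56%). The cell cycle homology region core, TTTGAA or TTCGAA on either strand, showed the other pattern: 5 of 27 members (18.5%) and 13 of 18 mitotic genes (72.2%) held it, beside 15.6% of the measured genes and 21.7% of all genes. A match is a description of these letters and not evidence of binding.

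The promoters of 4 members are shown as examples because their E2F-type matches, or the lack of any, sit beside levels given further on. Each is the 250 bases before the start, 5′ to 3′ on the gene's own strand, and capitals mark the motif matches. The helicase subunit gene Mcm6 (chr1:128359706-128359955, minus strand) had 3 matches, beginning 110, 106 and 47 bases before the start. Mcm5 (chr8:75109259-75109508, plus strand) had 2 overlapping matches beginning 153 and 149 bases before it. Dtl (chr1:191575545-191575794, minus strand) had 1 match beginning 8 bases before it. Tyms (chr5:30073626-30073875, minus strand) had no match in its window.
Mcm6: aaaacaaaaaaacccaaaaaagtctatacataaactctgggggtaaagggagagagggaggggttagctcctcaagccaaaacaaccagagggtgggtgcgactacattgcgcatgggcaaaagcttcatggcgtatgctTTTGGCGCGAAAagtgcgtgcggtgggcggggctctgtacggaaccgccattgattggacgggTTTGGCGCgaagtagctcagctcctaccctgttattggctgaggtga
Mcm5: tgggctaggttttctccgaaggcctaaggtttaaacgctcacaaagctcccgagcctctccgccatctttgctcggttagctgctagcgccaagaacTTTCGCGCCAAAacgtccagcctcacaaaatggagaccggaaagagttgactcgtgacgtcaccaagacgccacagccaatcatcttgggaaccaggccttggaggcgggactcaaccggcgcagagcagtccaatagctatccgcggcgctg
Dtl: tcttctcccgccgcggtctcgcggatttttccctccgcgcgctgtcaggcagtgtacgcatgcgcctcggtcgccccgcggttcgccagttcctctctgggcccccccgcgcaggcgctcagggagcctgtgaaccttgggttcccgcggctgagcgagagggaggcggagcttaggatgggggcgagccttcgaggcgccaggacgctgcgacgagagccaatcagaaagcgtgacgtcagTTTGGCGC
Tyms: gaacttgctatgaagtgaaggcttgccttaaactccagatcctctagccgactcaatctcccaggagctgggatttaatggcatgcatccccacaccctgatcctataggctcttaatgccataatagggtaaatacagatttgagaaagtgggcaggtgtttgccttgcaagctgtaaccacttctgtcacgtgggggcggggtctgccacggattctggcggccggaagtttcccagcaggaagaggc

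The matrix held 41462326 unique molecular identifiers (UMIs, each 1 captured transcript counted near its 3′ end) in 14685 barcodes, with medians of 2749 per barcode in barcode set 1 and 2763.5 in set 2. After filters 12975 cells were kept, 9578 of set 1 and 3397 of set 2, and 48 of the 14-base barcodes occur in both sets. Cells were grouped by the expression of other genes, with the members, the 85 other replication genes and the mitotic list left out, so that the values of these genes were not used. Genes outside these lists whose levels follow the members, such as 2810417H13Rik and Hmgb2, were not left out. The clusters are therefore not independent of the cell cycle, and differences of the members between them can in part follow from how they were drawn. The name of the cycling-like class also rests on the mitotic list, all 20 genes of which were at least 2 times higher in it than elsewhere. In the same class 10 of 11 neuroblast markers were also at least 2 times higher than elsewhere. Its name therefore does not set it apart from neuroblasts as a cell type. Of 11 clusters, 9 were named by marker genes and 2 were not. One unnamed cluster of 1714 cells was led by Mfng, Pak3, Hist1h1b, Hes6, Hat1 and Dlx1. It is called the Mfng and Pak3 cluster here, since 4 of 11 neuroblast markers were at least 2 times higher in it than elsewhere. Of markers of the labelled neural stem cells, Sox2 was at 232 CPM (UMIs per 1000000 UMIs), Nes at 51.2 CPM and Egfr at 39.7 CPM over all kept cells. Levels are given as CPM of summed UMIs. Since 3′ counting gives 1 UMI per transcript whatever its length, no length scaling was applied. Intervals are 95% intervals for counting error alone. There is 1 pooled matrix and no replicate, so no difference was tested.

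Members made up 0.212% of the UMIs of the kept cells, and the 32 levels differed widely. Rrm2, the small subunit of ribonucleotide reductase, was the most abundant at 227 CPM (interval 223 to 232) and was followed by Pcna at 203 CPM (199 to 208). Next came Slbp, which binds the stem-loop of replication-dependent histone transcripts, at 144 CPM, Dut (dUTPase) at 129 CPM, Rrm1 (the large reductase subunit) at 115 CPM and Tyms (thymidylate synthase) at 104 CPM. The 6 lowest were Chaf1b at 27.0 CPM, Dscc1 at 16.7 CPM, Cdt1 at 13.1 CPM, Cdc6 at 11.1 CPM, Ccne2 at 8.97 CPM and Ccne1 at 5.62 CPM (4.89 to 6.42). The intervals of neighbours in this order overlapped for 16 of 31 pairs, mostly in the middle of the list (Mcm6 at 62.5 CPM and Hells at 61.7 CPM, for example), and lay apart for 15, including all of the first 6. Of the first 6, 4 were nucleotide supply genes, and Cdc6, Cdt1 and both cyclins E stood at the foot of the order of levels.

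Which cells held these transcripts was asked next. Members took 0.805% of UMIs in neuroblast-like cells (interval 0.791 to 0.820%, 628 cells), 0.660% in the Mfng and Pak3 cluster (0.652 to 0.667%), 0.498% in cycling-like cells (0.491 to 0.505%, 1281 cells) and 0.272% in cells like oligodendrocyte precursors (OPC-like, 0.265 to 0.280%, 549 cells). The share was 0.106% in fibroblast-like cells, 0.0795% in progenitor-like cells, 0.0382% in the 6958 astrocyte-like cells and 0.0299% in ependymal-like cells. Within this clustering, the order of the first 4 was the same in both barcode sets: neuroblast-like cells stood at 0.780% in set 1 and 0.881% in set 2, the Mfng and Pak3 cluster at 0.655% and 0.672%, cycling-like cells at 0.492% and 0.513%, and OPC-like cells at 0.281% and 0.250%. The Mfng and Pak3 cluster alone held 37.8% of all member UMIs in 13.2% of the cells, while the astrocyte-like cells, 53.6% of all cells, held 10.1%. In this clustering the share was not highest in the class with the most mitotic transcripts, which was also named by them: the mitotic list stood at 14783 CPM in cycling-like cells, 3492 CPM in the Mfng and Pak3 cluster and 3453 CPM in neuroblast-like cells.

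These shares, and the order of the first 3, depend on where the cluster borders fall. Under all 7 other cell filters and clusterings tried, the cycling-like share (0.387 to 0.665%) lay above that of the cluster that overlaps most with the Mfng and Pak3 cluster (0.315 to 0.519%). It also lay above the neuroblast-like share with called doublets kept (0.626 and 0.610%), with all genes in the clustering (0.387 and 0.298%) and at a coarser resolution (0.665 and 0.410%). Over the same 7 settings the neuroblast-like share ran from 0.298 to 0.872% and the OPC-like share from 0.232 to 0.273%. Under 4 of them cells of the Mfng and Pak3 cluster joined the progenitor-like class, whose share then was 0.315 to 0.350%. Grouping cells without clusters, by UMIs of the marker lists after thinning each cell to 1500 UMIs (a grouping chosen after the clusters had been seen), gave 0.616% in 1702 cells with mostly neuroblast markers, 0.212% in 143 cells with mostly OPC markers and 0.0772% in 8005 cells with mostly astrocyte markers. Of the last group, the 360 cells with 6 or more mitotic UMIs held 0.462%.

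Cell by cell, the members were broadly present in the first 3 classes. Of cells thinned to 1500 UMIs, 87.1% of neuroblast-like cells (interval 84.1 to 89.7%), 85.4% of the Mfng and Pak3 cluster and 87.8% of cycling-like cells had 3 or more member UMIs. The share was 52.3% of OPC-like cells, 12.6% of progenitor-like cells and 2.78% of astrocyte-like cells (2.40 to 3.21%), the lowest of the classes given here. Without thinning the shares were 87.3% of neuroblast-like cells and 12.2% of astrocyte-like cells, at median depths of 2368 and 2990.5 UMIs. The median cell had 12 member UMIs among neuroblast-like cells, 9 in the Mfng and Pak3 cluster, 6 among cycling-like cells, 3 among OPC-like cells and 0 among astrocyte-like cells. The cycling-like median was thus lower than that of the other 2 groups although its share of cells with 3 or more UMIs was no smaller.

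**Figure D1:**
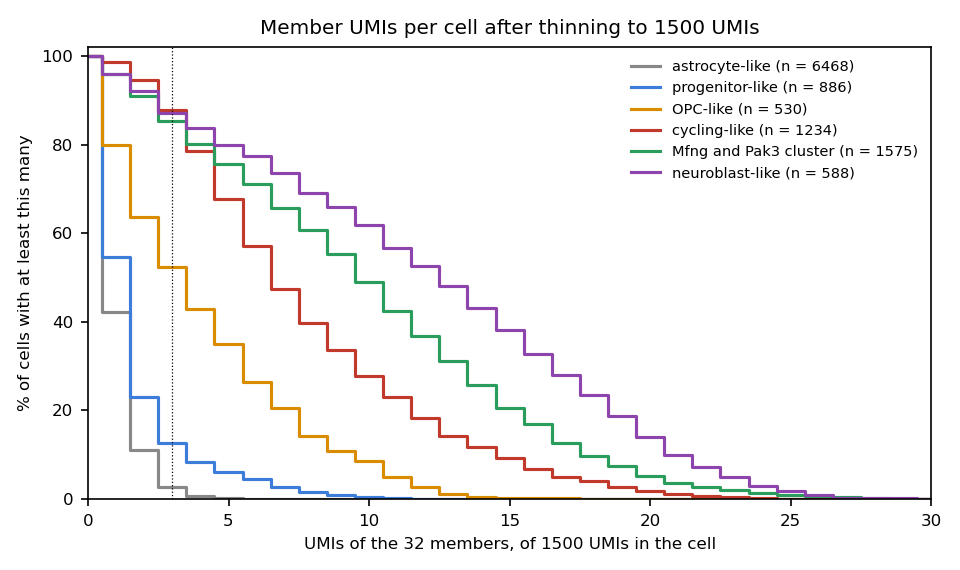
Percentage of cells (y axis) with at least the number of member UMIs on the x axis, after each cell was thinned to 1500 UMIs, for 6 classes (n = thinned cells). At 3 UMIs (dotted line) the neuroblast-like, Mfng and Pak3 and cycling-like curves meet near 87.1, 85.4 and 87.8%, then the cycling-like curve drops below the other 2.

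Levels by class are given from here on for the clustering described above. The 9 licensing and helicase genes were high in neuroblast-like cells and in the Mfng and Pak3 cluster. Mcm7, a helicase subunit, stood at 331 CPM in neuroblast-like cells, 286 CPM in the Mfng and Pak3 cluster, 184 CPM in cycling-like cells, 97.2 CPM in OPC-like cells and 19.1 CPM in astrocyte-like cells. Mcm6 ran through the same classes at 265, 223, 101, 83.7 and 11.1 CPM. Cdc6, which loads the helicase with Cdt1, was at 65.1 CPM in neuroblast-like cells and 54.5 CPM in the Mfng and Pak3 cluster but at 6.08 CPM in cycling-like cells. Within this clustering the same order held in both barcode sets: Cdc6 was at 53.9 and 99.4 CPM in neuroblast-like cells of sets 1 and 2, and at 5.01 and 8.59 CPM in cycling-like cells. Cdt1, the partner of Cdc6, was at 48.5 CPM in neuroblast-like cells and 14.7 CPM in cycling-like cells. Levels of Gins2, part of the GINS complex of the active helicase, were 238 and 124 CPM in these classes.

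Among the fork genes, Pcna was highest in neuroblast-like cells at 745 CPM, with 592 CPM in the Mfng and Pak3 cluster, 436 CPM in cycling-like cells, 274 CPM in OPC-like cells and 53.1 CPM in astrocyte-like cells. In set 1 and set 2 its levels were 703 and 873 CPM in neuroblast-like cells and 54.1 and 50.2 CPM in astrocyte-like cells, so that the classes did not overlap. Lig1, the ligase that joins Okazaki fragments, was at 314 CPM in neuroblast-like cells and 8.76 CPM in astrocyte-like cells. Rpa2, a subunit of the single-strand binding protein, was the fork gene with a higher level in the Mfng and Pak3 cluster (318 CPM) than in neuroblast-like cells (256 CPM). Its level in cycling-like cells was 130 CPM.

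The nucleotide supply genes were as high in cycling-like cells as in the Mfng and Pak3 cluster. Rrm2 stood at 1026 CPM in neuroblast-like cells, 642 CPM in the Mfng and Pak3 cluster, 741 CPM in cycling-like cells, 260 CPM in OPC-like cells and 15.3 CPM in astrocyte-like cells. Tyms stood at 461, 266, 348, 87.5 and 11.3 CPM in the same classes. Tk1, cytosolic thymidine kinase, was at 218 CPM in neuroblast-like cells, 197 CPM in cycling-like cells and 2.58 CPM in astrocyte-like cells. The chromatin and control genes were mixed. Slbp was at 465 CPM in the Mfng and Pak3 cluster and 225 CPM in cycling-like cells. Esco2, an acetyltransferase that establishes cohesion between sister chromatids, was at 139 and 190 CPM, and Fbxo5, an inhibitor of the anaphase-promoting complex also known as Emi1, at 135 and 228 CPM. Both cyclins E, which drive entry into S phase, went the other way, with Ccne2 at 38.9 and 6.55 CPM and Ccne1 at 20.3 and 3.51 CPM.

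**Figure D2:**
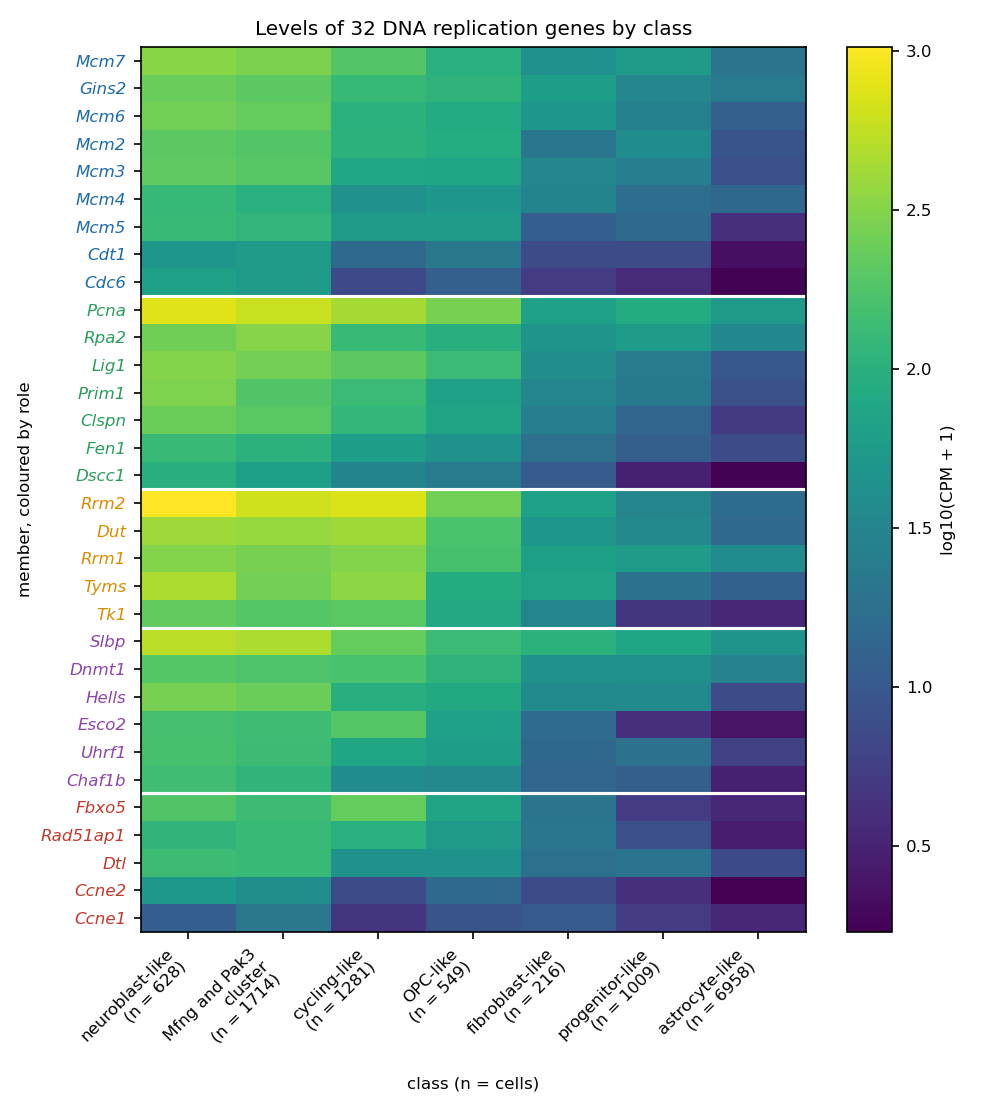
Level of each member (rows, coloured and grouped by role and ordered by level within a role) in 7 classes (columns, n = cells), as log10 of CPM + 1. The neuroblast-like and Mfng and Pak3 columns are bright for nearly every row (Rrm2 at 1026 and 642 CPM), and in the cycling-like column of this clustering Cdc6, Cdt1, Ccne2 and Ccne1 are dark while the nucleotide supply genes stay bright.

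Members were then counted by a fixed rule: the level in a class had to differ at least 1.5-fold from that of all other kept cells, the sign of the difference had to be shared by sets 1 and 2, and the other cells' level had to lie outside the class's interval. All 32 were called higher in the Mfng and Pak3 cluster (13% of 13025 measured genes were called higher there) and all 32 in neuroblast-like cells (12.2%). The median log2 ratio of the members was 2.15 and 2.03, beside -0.21 and -0.25 over all measured genes. In cycling-like cells 24 members were called higher (12.6% of all genes) and 2 lower, Cdc6 and Ccne1 (39.1% of all genes were called lower), and Cdt1, Mcm4, Rpa2, Chaf1b, Dtl and Ccne2 were neither. In OPC-like cells 8 were called higher (8.41% of all genes), namely Mcm2, Mcm5, Gins2, Lig1, Uhrf1, Dnmt1, Rad51ap1 and Ccne2. All 32 were called lower in astrocyte-like cells (19.2% of all genes). In progenitor-like cells 30 were called lower (13.5% of all genes), which fell to 2 or 3 under the 4 clusterings named above. The name of this class rests on 4 of 9 progenitor markers. Its leading genes were Mfge8, Prss23, Btg2, Fam162a, Ncald and Gpi1. The count therefore holds for this cluster and not for progenitors in general. Other counts moved too: 15 members were higher in the Mfng and Pak3 cluster and 15 in cycling-like cells under a stricter cell filter, 13 were higher in neuroblast-like cells when all genes entered the clustering, and 1 to 3 in OPC-like cells under 6 other settings. The share of all genes called was not counted under these other settings, so these counts cannot be set beside it. Cdc6 and Ccne1 were higher, not lower, in cycling-like cells under 5 of the 7 other filters and clusterings, at log2 ratios of 0.63 to 1.21 for Cdc6 and 0.44 to 0.87 for Ccne1.

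The cycling-like and OPC-like counts rest on the astrocyte-like cells in the comparison. Against the other cells that are not astrocyte-like, 7 members were higher in cycling-like cells (6.98% of 11498 genes) with a median log2 ratio of -0.14, and 0 were higher in OPC-like cells (11% of genes) with a median of -0.62. Direct ratios between classes were taken within the same clustering. The first of them holds for that clustering alone, since under all 7 other settings the members' share was higher in cycling-like cells than in the cluster matched to the Mfng and Pak3 cluster, as given above. Between cycling-like cells and the Mfng and Pak3 cluster, 20 members were at least 1.5-fold lower in cycling-like cells, with the interval of the ratio off 1 and the same direction in both sets (7.7% of 9665 genes), and 1 was higher, Fbxo5 at a ratio of 1.69 (interval 1.53 to 1.87, 6.99% of genes). All 9 licensing genes were among the 20, with Cdc6 at a ratio of 0.112 (0.0715 to 0.167), and none of the 5 nucleotide genes was, with ratios from 1.05 (Tk1) to 1.31 (Tyms). Against the Mfng and Pak3 cluster all 32 members were lower in OPC-like cells (9.87% of 9348 genes), with a median log2 ratio of -1.32. Between neuroblast-like cells and the Mfng and Pak3 cluster 27 of 32 were neither higher nor lower by this rule, 4 were higher (5.87% of 8924 genes), Prim1, Dscc1, Tyms and Rrm2, and 1 was lower (8.06%), Ccne1.

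In astrocyte-like cells the members were low but not equally so. As a percentage of the level in the Mfng and Pak3 cluster, their astrocyte-like level ran from 1.01% (Esco2, interval 0.678 to 1.46%) and 1.37% (Tk1) to 13.1% (Rrm1), 13.5% (Mcm4) and 16.1% (Dnmt1, the maintenance DNA methyltransferase, 14.4 to 17.9%). The members thus did not stand in 1 ratio between these classes, and the part of free RNA in these counts was not tested. Astrocyte-like cells with 0 mitotic UMIs held 0.0367% member UMIs and the 6 with 6 or more held 0.156% (0.0851 to 0.261%).

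A further question was how the members vary with the number of mitotic transcripts in a cell. Cells thinned to 1500 UMIs were split by their UMIs of the 20-gene mitotic list, led by Ube2c, Top2a, Cenpf and Pttg1, into 6770 cells with 0, 2047 with 1 to 2, 672 with 3 to 5 and 2220 with 6 or more. The list shares no gene with the members. Members took 0.0622% of UMIs in cells with 0, 0.220% with 1 to 2, 0.616% with 3 to 5 (interval 0.600 to 0.631%) and 0.564% with 6 or more (0.556 to 0.572%). All 32 were higher in the third bin than in the first, from 4.74-fold for Dnmt1 to 46.6-fold for Esco2, with every interval above 1 (18.5% of 11872 genes). Of the 6770 cells of the first bin 5320 were astrocyte-like, against 31 of the 672 of the third, so these folds also compare classes. Between these bins the members' share rose from 0.421 to 0.680% within the Mfng and Pak3 cluster. It rose from 0.627 to 0.841% within neuroblast-like cells and from 0.120 to 0.328% within OPC-like cells. With 6 or more mitotic UMIs the share was 0.721% in the Mfng and Pak3 cluster, 0.831% in neuroblast-like cells and 0.328% in OPC-like cells. Unlike the pooled share, it thus rose further in the Mfng and Pak3 cluster and stayed nearly level in neuroblast-like and OPC-like cells. From the third bin on the members parted. The highest level lay in the bin of 3 to 5 for 24 members and in that of 6 or more for 8. How all measured genes divide between these bins by their highest level was not counted.

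**Figure D3:**
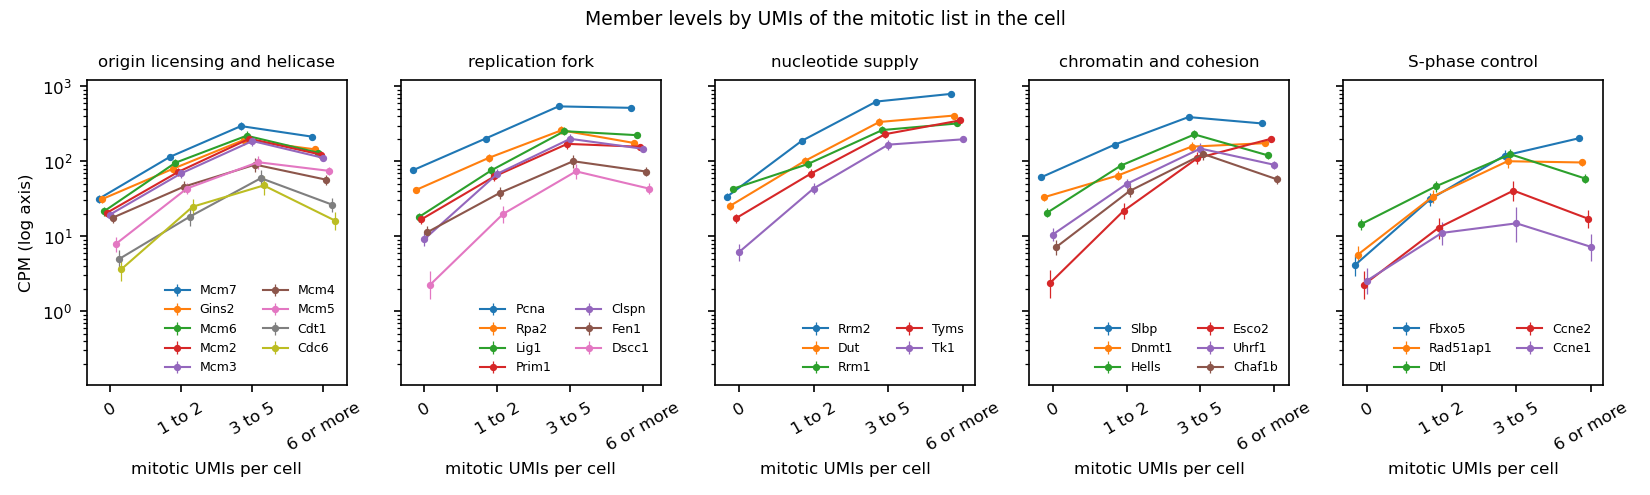
Level of each member (CPM, log axis, bars are 95% Poisson intervals) in cells with 0, 1 to 2, 3 to 5 and 6 or more UMIs of the mitotic list, 1 panel per role. Every line climbs over the first 3 bins, and in the last bin the licensing lines turn down (Cdc6 from 47.6 to 16.2 CPM) while the nucleotide lines go on up (Rrm2 from 626 to 792 CPM).

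Between the 2 upper bins, 13 members were at least 1.5-fold lower in cells with 6 or more mitotic UMIs with the interval of the ratio below 1 (5.42% of 11872 genes), and 3 were higher (3.42%). Cycling-like cells were 1218 of the 2220 cells with 6 or more and 12 of the 672 with 3 to 5, so these ratios also compare classes. The 13 held 6 of the 9 licensing genes. Cdc6 fell from 47.6 to 16.2 CPM (log2 ratio -1.55, interval -2.14 to -0.96), Cdt1 from 59.5 to 26.4 CPM (-1.17), Mcm3 from 187 to 111 CPM, Mcm6 from 219 to 130 CPM, Mcm2 from 200.4 to 123 CPM and Mcm4 from 90.3 to 56.8 CPM. The intervals of Mcm5, Mcm7 and Gins2 also lay below 1 (20 members and 9.01% of genes in all), so that all 9 licensing genes were lower, 3 of them by less than 1.5-fold. The others were Dscc1 of the fork group (73.4 to 43.2 CPM), the chromatin assembly subunit gene Chaf1b (125 to 57.4 CPM), the chromatin remodeller gene Hells (228 to 120 CPM), Uhrf1, which recognises hemimethylated DNA (148 to 89.8 CPM), Dtl, which targets Cdt1 for degradation (124 to 58.9 CPM), Ccne2 (40.7 to 17.1 CPM) and Ccne1 (14.9 to 7.21 CPM). Ccne1 was the least certain, with an interval on the log2 scale of -2.04 to -0.01.

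The 3 that were higher are Tyms (230 to 351 CPM, log2 ratio 0.61, interval 0.40 to 0.82), Fbxo5 (119 to 203 CPM, 0.77) and Esco2 (110 to 199.7 CPM, 0.86). With cells thinned to 1000 UMIs in place of 1500, 0 members were called higher, and the log2 ratios were 0.09 for Tyms, 0.45 for Fbxo5 and 0.30 for Esco2. All 5 nucleotide genes had their highest level in the top bin, and the intervals of 4 of them lay above 1 (6 members and 5.64% of genes in all), with Tk1 (167 and 196 CPM) spanning 1. Pcna (540 and 516 CPM), Prim1, the catalytic primase subunit gene (171 and 156 CPM), Lig1 (252 and 223 CPM) and Rad51ap1, whose product assists recombination (100.2 and 96.4 CPM), had intervals that span 1. The median log2 ratio was -0.71 for licensing genes, -0.44 for fork genes, 0.29 for nucleotide genes, -0.50 for chromatin genes and -1.05 for control genes, beside -0.10 over all genes measured. Of the promoters matched, 7 of the 10 of genes that fell at least 1.5-fold held an E2F-type motif, as Mcm6 and Dtl do, while Mcm2, Chaf1b and Ccne1 did not. Of the 17 others 5 did, among them Mcm5, Mcm7 and Clspn, whose intervals also lay below 1, so the split depends on the cut-off. Tyms, which has none in its window, was among the genes that rose. A link between motif and level was not tested.

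**Figure D4:**
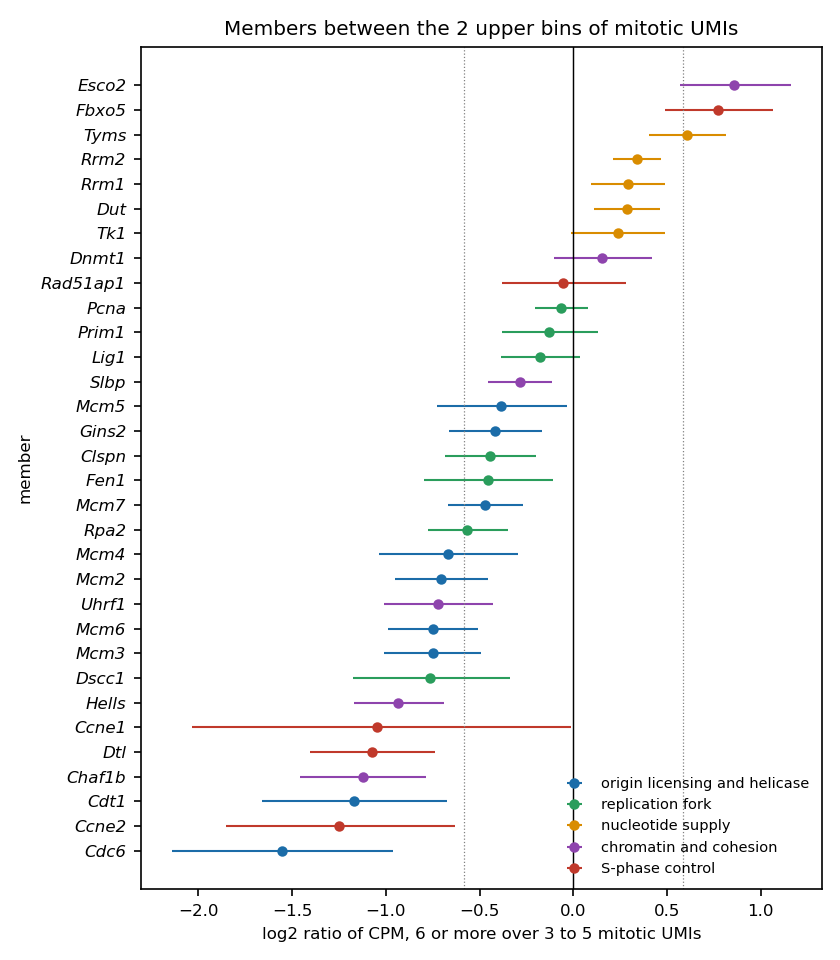
Log2 ratio of each member's level between cells with 6 or more and cells with 3 to 5 mitotic UMIs (points, coloured by role, bars are 95% intervals), with dotted lines at 1.5-fold. The 9 licensing genes all lie left of 0, from -1.55 for Cdc6 to -0.38 for Mcm5, and the 5 nucleotide genes right of it, from 0.24 for Tk1 to 0.61 for Tyms.

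The sign of the ratio was kept by 32 of 32 members in set 1 (median log2 ratio -0.45) and 28 of 32 in set 2 (-0.42), and by 24 of 32 within the Mfng and Pak3 cluster, 28 of 32 within neuroblast-like cells and 26 of 31 within OPC-like cells. Each part was compared with the pooled ratio, which holds its own cells. How many of all measured genes kept their sign was not counted, so these counts cannot be set beside it. Set 1 gave 502 of the 672 and 1587 of the 2220 cells of these bins, so its sign was largely fixed by the pooled one. Of the 16 called members, Ccne1 changed sign in set 2, with a log2 ratio of 0.56, and Mcm4 (0.0198), Dscc1 (0.0488) and Ccne1 (0.19) did within the Mfng and Pak3 cluster. Dtl did within OPC-like cells (0.147). Median ratios were smaller within classes. In the Mfng and Pak3 cluster the median was 0.01, with intervals below 1 for 4 members (Mcm2, Mcm7, Chaf1b and Dtl; 4.16% of 6342 genes) and above 1 for 5 (Pcna, Tyms, Rrm2, Esco2 and Fbxo5; 4.15%). In neuroblast-like cells it was -0.16, with 5 below 1 (Mcm2, Mcm3, Chaf1b, Hells and Uhrf1) and 4 above 1 (Tyms, Dut, Esco2 and Fbxo5), beside 3.71% of 3534 genes in either direction. In OPC-like cells it was -0.17, with Mcm6 below 1 (3.2% of 3501 genes) and Fbxo5 above 1 (3.31%). Of the cycling-like cells 98.7% were in the top bin, so class and bin go together and the pooled ratios also compare classes. With the top bin divided at 12 and 24 UMIs, a split chosen after the data were seen, 13 members had their highest level at 3 to 5, 15 at 6 to 11, 3 at 12 to 23 and 1 at 24 or more. The same count over all genes was not made. In this split the members' share was 0.616% at 3 to 5, 0.677% at 6 to 11, 0.549% at 12 to 23 and 0.412% at 24 or more. Cdc6 ran in this split from 47.6 CPM at 3 to 5 over 35.1 and 7.58 CPM to 1.27 CPM (1 UMI) at 24 or more.

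Cells without mitotic UMIs also held members, and by class they differed. Neuroblast-like cells with 0 mitotic UMIs had 0.627% member UMIs (interval 0.585 to 0.672%, 85 cells), the Mfng and Pak3 cluster 0.421% (0.399 to 0.443%, 228 cells), OPC-like cells 0.120% (185 cells), progenitor-like cells 0.0647% and astrocyte-like cells 0.0367%.

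Most pairs of members with at least 5 expected cells were found together in the same cell more often than independent detection would give. In 1234 cycling-like cells the ratio of cells with both members of a pair to the number expected had a median of 1.23 over the 380 of 496 pairs with at least 5 expected cells. It was 1.22 over 2163 cells of the neuroblast-like and Mfng and Pak3 clusters and 2.91 over all 11709 thinned cells, which mix cells with and without these transcripts. Of pairs with at least 20 expected cells, Esco2 and Fbxo5 had the highest ratio over all cells and the second highest, after Dscc1 and Esco2 (1.95-fold), in the neuroblast-like and Mfng and Pak3 cells: 224 cells had both where 45.4 were expected over all cells (4.94-fold), and in the neuroblast-like and Mfng and Pak3 cells 112 where 61.7 were expected (1.82-fold). Over pairs with at least 5 expected cells the ratio reached 6.04 and 2.15. The lowest pairs with at least 20 expected in the latter cells were Cdc6 with Dut (63 cells where 71.3 were expected, 0.884-fold) and Esco2 with Dtl (54 and 61.4 cells, 0.880-fold). Below 1 were 24 of 380 pairs in cycling-like cells (lowest 0.435) and 21 of 493 in neuroblast-like and Mfng and Pak3 cells (lowest 0.728). The ratio was not taken for pairs of other genes, so it cannot be called particular to the members.

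Outside the list, the genes whose levels per cell followed the summed members most closely were 2810417H13Rik (Pearson r = 0.74 over 12975 cells), Hmgb2 (0.66), H2afz (0.66), Stmn1 (0.66), Tubb5 (0.64), Hmgn2 (0.62), Ccnd2 (0.61) and Top2a (0.61). Within the 1281 cycling-like cells the linker histone genes Hist1h1b (0.49) and Hist1h1e (0.46) led, and 3 of the 8 genes were shared with the first list. These are descriptions across cells that share a library, and depth and class enter them.

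Most of the 85 other genes of replication were called in the direction of the members in the clustering described above. In the Mfng and Pak3 cluster 75 were called higher and 3 lower (Pold4, Rb1 and Rbl2; 37.7% of all genes were lower there). In neuroblast-like cells it was 70 and 3 (Pold4, Cad and Rbl2; 30.2% of all genes), in cycling-like cells 59 and 3 (Pold4, Dctd and Ung), and in OPC-like cells 24 and 4 (Orc3, Cdca7, Rb1 and Rbl2; 18.8%). The higher counts moved with the settings: in the Mfng and Pak3 cluster to 48 with no cell filter, 23 with the stricter filter, 46 with all genes and 38 without the members only in the clustering. Without astrocyte-like comparison cells they were 43 in neuroblast-like, 11 in cycling-like and 2 in OPC-like cells. Neuroblast-like cells had 17 with all genes in the clustering, cycling-like cells 38 with the stricter filter, and OPC-like cells 9 to 15 under 5 other settings. For these other settings too the share of all genes called was not counted. In astrocyte-like cells 74 were called lower and 2 higher (37.1% of all genes), Rb1 (25.7 CPM, beside 12.7 CPM in the other cells) and Rbl2 (19.6 and 9.91 CPM), which encode the retinoblastoma protein and its relative p130. Their medians, 1.34 in the Mfng and Pak3 cluster and 0.84 in cycling-like cells, were below those of the members. By group, all 9 chromatin assembly genes were called higher in the Mfng and Pak3 cluster, with the histone chaperone gene Nasp at 413 CPM there and 38.9 CPM in astrocyte-like cells. Of 18 origin and firing genes 16 were, with Gmnn, which encodes the Cdt1 inhibitor geminin, at 331 and 12.7 CPM. Of 16 clamp loading and fork genes 14 were, with Rfc2 at 238 and 61.3 CPM, and of 11 polymerase genes 10 were. Pold4, a small subunit of DNA polymerase delta, went against its group with 31.6 CPM in the Mfng and Pak3 cluster and 67.3 CPM in astrocyte-like cells. The genes called against the majority were named after their values were seen.

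Between the barcode sets most members differed little. The interval of the ratio of set 2 to set 1 lay above 1 for 13 members (14.2% of genes) and below 1 for 3 (9.04%), with a median log2 ratio of 0.13 beside 0.03 over all genes, and 0 were at least 1.5-fold higher in set 2 (0.975% of 13025 genes). At least 1.5-fold lower were 2 members (2.6% of genes). Dut was at 144 CPM in set 1 (140 to 149) and 85.8 CPM in set 2 (80.2 to 91.6), a ratio of 0.595 (0.553 to 0.640), and Hells was at 67.9 and 44.7 CPM, a ratio of 0.658 (0.593 to 0.729). Both were lower in set 2 in each class with many UMIs. For Dut the ratio was 0.561 in the Mfng and Pak3 cluster, 0.539 in cycling-like cells, 0.522 in neuroblast-like cells, 0.677 in OPC-like cells and 0.658 in astrocyte-like cells, and for Hells it was 0.649, 0.554, 0.715, 0.664 and 0.720. With each set given the class makeup of the pooled cells, Dut was at 148 and 82.6 CPM and Hells at 72.3 and 46.2 CPM. Condition, library preparation and sequencing cannot be told apart between the sets.

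**Figure D5:**
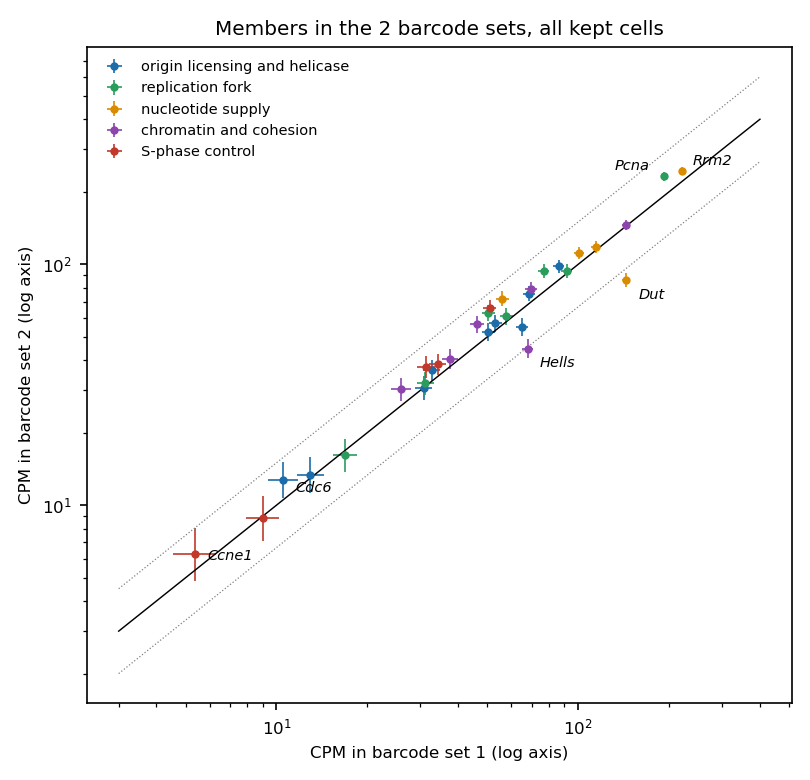
Level of each member in barcode set 1 (x axis) and set 2 (y axis), CPM on log axes, bars are 95% Poisson intervals, colours are roles, the solid line marks equal levels and dotted lines 1.5-fold. Dut (144 and 85.8 CPM) and Hells (67.9 and 44.7 CPM) lie below the lower dotted line and the other 30 between the dotted lines.

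Reads of some members may be shared with other genes. In GENCODE M21 Mcm7 overlaps Cops6 and Ap4m1 on the other strand, Gins2 overlaps Gm20388 and Gse1, Cdt1 Gm20388, Fen1 Tmem258, Lig1 Zswim9, Tk1 Gm20708 and Afmid, and Ccne2 Ints8. Named pseudogene copies exist of Pcna and Tyms, and no label says how reads were split between copies.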

How the data were processed

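Whole UMI counts per gene and barcode were deposited by the authors as 1 matrix, made with Cell Ranger 2.1.1 on the mm10 build per the submitters' processing notes. The labels' protocols name the 10x Chromium Single Cell 3′ kit, version 1. No label says whether the libraries were brought to equal depth. The control library's protocol label also mentions 20HC, and its group was taken from its title.

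Barcodes with fewer than 500 genes (635) or over 10% mitochondrial UMIs (912) were left out, 1407 in all. Scrublet (scanpy 1.11.5) called doublets within each barcode set, 291 of 9869 (2.95%) and 12 of 3409 (0.352%), against 7.90% and 2.73% expected at 0.8% per 1000 cells, and doublets left among the kept cells of either set were not measured. Clusters came from 2000 variable genes, 30 components, 15 neighbours and Leiden resolution 0.5 (leidenalg 0.10.2), with the members and cell cycle lists left out; of the members, 24 would have been among the variable genes had they been allowed. A cluster was named when at least 3 and at least 40% of a class's markers were at least 2 times higher, and its leading genes did not go against it; the 40% was set after the data were seen and keeps the Mfng and Pak3 cluster unnamed. The leading genes of the second unnamed cluster are not reported here.

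CPM carry exact Poisson intervals, shares Clopper-Pearson intervals and ratios conditional exact binomial intervals. Log2 ratios to all other cells used CPM + 5, and a gene needed 30 UMIs to be measured. The call rule was tested on simulated data. Every member may be named; other replication genes were named when among the 3 most abundant of their group or called against it, and genes of like pattern as the 8 with the highest r. The members and lists were chosen with earlier results of these data known. Positions are from GENCODE M21 (28339 of 28692 IDs, 98.8%). Python 3.11.15, numpy 2.4.6, scipy 1.17.1, pandas 2.3.3, scikit-learn 1.9.0, python-igraph 0.11.9 and matplotlib 3.10.9 were used.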

Additional observations from a re-analysis of the deposited data

Results flagged for a closer look

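Barcodes that the comparisons did not use also held member UMIs. Members made up 0.0430% of the UMIs of the 635 barcodes with fewer than 500 genes (interval 0.0379 to 0.0486%) and 0.0541% of those of the 912 barcodes above 10% mitochondrial UMIs (0.0506 to 0.0579%), which lies above the 0.0382% of astrocyte-like cells. The 303 barcodes called doublets held 0.293% (0.284 to 0.302%) at a median of 4331 UMIs, above the 0.212% of the kept cells. Each was noted because it is signal in data outside the main measurement.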

How the results depend on the processing

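No paired analysis was possible because each condition has 1 library, barcodes carry no sample and no test was made. Shares of member UMIs in classes are given for 7 settings in 1 order: no cell filter, a stricter filter (at least 1000 genes and at most 5% mitochondrial UMIs), called doublets kept, clustering with all genes, clustering without the members only, Leiden resolution 0.3 and resolution 1.0. The cluster that overlaps most with the Mfng and Pak3 cluster stood at 0.35%, 0.315%, 0.519%, 0.349%, 0.327%, 0.41% and 0.456%. Neuroblast-like cells stood at 0.707%, 0.872%, 0.61%, 0.298%, 0.723%, 0.41% and 0.728%. Cycling-like cells stood at 0.663%, 0.421%, 0.626%, 0.387%, 0.654%, 0.665% and 0.647%. OPC-like cells stood at 0.24%, 0.243%, 0.272%, 0.269%, 0.232%, 0.273% and 0.243%. Astrocyte-like cells stood at 0.0372%, 0.0392%, 0.0367%, 0.038%, 0.0383%, 0.0386% and 0.0364%. Progenitor-like cells stood at 0.35%, 0.315%, 0.349%, 0.327% and 0.0882% with no cell filter, the stricter filter, all genes, without the members only and at resolution 1.0, and no cluster took that name with doublets kept or at resolution 0.3. In set 1 and set 2 alone the shares were 0.655% and 0.672% (Mfng and Pak3 cluster), 0.78% and 0.881% (neuroblast-like), 0.492% and 0.513% (cycling-like), 0.281% and 0.25% (OPC-like), 0.0855% and 0.0633% (progenitor-like) and 0.0388% and 0.0365% (astrocyte-like). Cells grouped by marker UMIs, added after the data were seen, gave 0.616% (neuroblast-like), 0.212% (OPC-like) and 0.0772% (astrocyte-like). Of the members, those called higher numbered 15 in the Mfng and Pak3 cluster and 15 in cycling-like cells with the stricter filter, 13 in neuroblast-like cells when clustering with all genes, and 7 in cycling-like cells without astrocyte-like comparison cells. In OPC-like cells, in place of 8, they numbered 2, 1, 1, 2, 3, 3 and 0 with no cell filter, the stricter filter, clustering without the members only, resolution 1.0, set 2 alone, cells weighted equally and no astrocyte-like comparison cells. In progenitor-like cells 2, 3, 2 and 2 were lower with no cell filter, the stricter filter, clustering with all genes and clustering without the members only. Of the 85 other genes, those higher in the Mfng and Pak3 cluster then numbered 48, 23, 46 and 38, and those lower in progenitor-like cells 3, 6, 3 and 3, with 29 in set 2 alone and 68 without astrocyte-like comparison cells. Neuroblast-like cells had 17 higher when clustering with all genes and 43 without astrocyte-like comparison cells, and cycling-like cells 38 with the stricter filter and 11 without those cells. OPC-like cells had 13, 9, 10, 15, 9 and 2 higher with no cell filter, the stricter filter, clustering without the members only, resolution 1.0, set 2 alone and no astrocyte-like comparison cells. Between the upper mitotic bins, 1 member was lower and 0 higher within cycling-like cells (12 cells in the lower bin), 5 lower within neuroblast-like cells, 1 lower and 1 higher within the Mfng and Pak3 cluster (chosen after the data were seen), and 0 higher at 1000 UMIs a cell. For these counts the share of all genes called was not counted, except in cycling-like and OPC-like cells without astrocyte-like comparison cells. The median co-detection ratio was 2.91 over all kept cells, and 3 of the 8 most alike genes were shared within cycling-like cells. With the 150 bases before the start alone 5 members held the E2F-type motif and 2 the CHR core. Medians changed sign without astrocyte-like comparison cells (-0.14 in cycling-like and -0.62 in OPC-like cells) and in progenitor-like cells under the 4 settings named for it (0.94, 0.50, 0.92 and 0.81). Single members called in cycling-like cells changed sign in log2 ratio without astrocyte-like comparison cells (Mcm2 -0.16, Mcm3 -0.57, Mcm5 -0.36, Mcm6 -0.43, Gins2 -0.12, Fen1 -0.12, Clspn -0.0151, Dscc1 -0.36, Slbp -0.33, Hells -0.60 and Uhrf1 -0.21), with the stricter filter (Dscc1 -0.15 and Slbp -0.16) and with all genes in the clustering (Slbp -0.17). Cdc6 and Ccne1, lower in cycling-like cells, were higher at 1.07 and 0.71 (no cell filter), 0.63 and 0.44 (doublets kept), 1.21 and 0.82 (clustering without the members only), 1.10 and 0.87 (resolution 0.3) and 1.03 and 0.84 (resolution 1.0). Between the upper bins the sign changed within the Mfng and Pak3 cluster (Mcm4 0.0198, Dscc1 0.0488 and Ccne1 0.19), within cycling-like cells (Hells 0.53), within OPC-like cells (Dtl 0.147) and in set 2 alone (Ccne1 0.56). For these the cause was not tested. In neuroblast-like, OPC-like, progenitor-like and Mfng and Pak3 cells, 1313 values of single members kept their call over all settings, 141 lost or gained one and 146 changed sign. All 384 calls of members as lower in astrocyte-like cells and all 6 set values of Dut and Hells were kept. Depth limits the cyclins E, Cdc6 and Dscc1, with 214 UMIs for Ccne1, 342 for Ccne2, 424 for Cdc6 and 636 for Dscc1.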
